A study of Mus musculus with 3 samples.

Results

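The genes described are 10 markers of B lymphocytes measured in mouse thymocytes, which are T cells in development: Cd79a, Cd79b, Ms4a1, Cd22, Fcer2a, Fcmr, Bank1, Pax5, Ebf1 and Pou2af1. They were chosen by name as genes of the B lineage, with earlier results of these data known. All 10 have 1 probe set each, so they are 10 of 19938 named genes. RNA was measured on 3 Affymetrix whole-transcript arrays, with 1 array per genotype. The wild type mouse was 12 weeks old, the β-catenin transgenic mouse 16 weeks and the TCF-1-deficient (TCF-1-/-) mouse 8 weeks. The strain, the promoter of the transgene, and whether an array holds RNA of a single animal were not given in the sources used here. Thymocytes were only passed through a strainer, with no sort or gate mentioned, so each array reports on every cell in the suspension. Values are deposited levels on the log2 scale. A difference is the level on one array minus that on another, and a fold is 2 to the power of the difference. With no replicate, no value carries an error, no difference has a test, and precision is limited by the number of arrays. Higher and lower describe these arrays only.

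B lymphocytes are made in the bone marrow and recognise antigen through a membrane immunoglobulin that signals through the paired chains encoded by Cd79a and Cd79b. Co-receptors such as CD22 set the strength of that signal, and the transcription factors EBF1 and PAX5 establish and hold the lineage. The thymus contains a small resident and recirculating population of B cells among its far more numerous T lineage cells. TCF-1 is a transcription factor of the Wnt pathway that acts early in the T lineage and can bind β-catenin, and the study compared its loss with a β-catenin transgene.

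The arrays carried the T lineage RNA their labels name. Of the thymocyte markers measured, 14 of 14 were above the 95th percentile of olfactory and vomeronasal receptor genes on each array. These 1190 sensory receptor genes serve below as a rough gauge of signal from genes that thymocytes do not use, and the gauge lay at 6.17 on the wild type, 6.22 on the transgenic and 6.28 on the TCF-1-deficient array. Background differs between probe sets, so a level near the gauge is uncertain rather than absent. Xist, expressed from the inactive X chromosome, was at 12.49 on the wild type, 12.17 on the TCF-1-deficient and 4.86 on the transgenic array. Sex-linked transcripts thus set the transgenic array apart from the wild type and TCF-1-deficient arrays, and age differed between all arrays. Where they differed, neither can be told apart from genotype. None of the 10 B cell genes lies on a sex chromosome.

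Promoters were examined because the B cell genes were higher together on the TCF-1-deficient array. RefSeq windows of 250 bases upstream of annotated starts (build GRCm38.p6) were matched for 8 of the 10 genes, in 11 windows. Cd79b and Ms4a1 had no match. The windows of Cd79a (chr7:24897247-24897496, plus strand), Fcmr (chr1:130865527-130865776, plus strand) and Bank1 (chr3:136326067-136326316, minus strand) are shown because these 3 genes had larger differences from wild type on the transgenic array than the other members, and each was also beyond 2-fold on the TCF-1-deficient array. They are written 5′ to 3′ and end at the base before the start, and capitals mark the letters of any motif searched.
Cd79a: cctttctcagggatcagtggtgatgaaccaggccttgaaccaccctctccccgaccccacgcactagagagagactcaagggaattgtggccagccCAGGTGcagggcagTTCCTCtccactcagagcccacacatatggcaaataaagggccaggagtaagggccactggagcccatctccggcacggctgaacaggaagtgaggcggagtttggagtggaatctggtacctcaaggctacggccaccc
Fcmr: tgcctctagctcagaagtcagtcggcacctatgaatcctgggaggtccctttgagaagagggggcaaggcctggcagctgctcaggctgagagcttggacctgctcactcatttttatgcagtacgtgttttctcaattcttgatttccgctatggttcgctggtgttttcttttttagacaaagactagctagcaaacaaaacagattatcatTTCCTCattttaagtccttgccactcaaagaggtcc
Bank1: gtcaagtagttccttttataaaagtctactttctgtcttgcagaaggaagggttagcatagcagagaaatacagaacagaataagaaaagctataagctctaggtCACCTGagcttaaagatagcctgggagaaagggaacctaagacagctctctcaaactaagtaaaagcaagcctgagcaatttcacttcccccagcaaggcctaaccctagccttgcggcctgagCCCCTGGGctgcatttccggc

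The motifs were searched on both strands. GAGGAA, the core bound by the ETS factor PU.1, was in the Cd79a and Fcmr windows, from 140 to 135 bases and from 36 to 31 bases before the start, and in 1 of the 2 Ebf1 windows. It was in 23.3% of all 32851 promoter windows of the same length. CAGGTG, an E-box bound by E proteins, was in 4 of the 11 windows, 1 each of Cd79a, Bank1, Cd22 and Fcer2a, against 17.2% of all windows. CCCNNGGG, the palindromic core bound by EBF factors, was in 2 of the 11 windows, those of Bank1 and Cd22, against 11.8% of all windows. The octamer ATGCAAAT, through which the product of Pou2af1 acts with its partner factors, was in 0 of the 11 windows and in 1.6% of all windows. CTTTGAA or CTTTGAT, the letters that TCF and LEF factors prefer, were in 0 of the 11 windows and in 7.48% of all windows. In the 3 windows shown, none of the matches overlapped another. A match describes letters only, and a missing one says only that these letters are not in this window.

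The first comparison asked which of these genes differ without TCF-1. Compared with wild type, all 10 B cell genes were higher on the TCF-1-deficient array, by 0.45 to 2.53, while 37.6% of all genes were higher by any amount and 26.1% were lower. At 2-fold or more, 5 of 10 were higher (Cd79a, Fcmr, Ms4a1, Fcer2a and Bank1), against 1.33% of all genes, and 0 were lower, against 2.62%. The median over the 10 genes was 1.24, or 2.37-fold, and the median over all genes was 0. In bulk RNA, a larger share of B cells among the cells and more of these RNAs per cell cannot be told apart.

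The second comparison asked the same of the transgene. On the transgenic array 9 of 10 were higher than on wild type, against 24.5% of all genes, and Pax5 was lower, against 22.2%. The differences ran from -0.02 for Pax5 to 0.97 for Cd79a. None of the 10 reached 2-fold in either direction, where 0.15% of all genes were higher and 0.0953% lower. At 1.5-fold, 2 of 10 were higher, Cd79a and Fcmr, against 0.487% of all genes. The median was 0.27, beside 0 over all genes. Both comparisons use the same wild type array, so an unusual level there would enter both. Without the wild type array, all 10 were lower on the transgenic than on the TCF-1-deficient array, against 34.4% of all genes lower and 24.6% higher. By at least 2-fold 4 of them were lower and 0 higher, against 1.57% and 2.45% of all genes, and by at least 1.5-fold 9 were lower, against 4.4%. The median of that difference was -0.96, beside 0 over all genes.

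**Figure D1:**
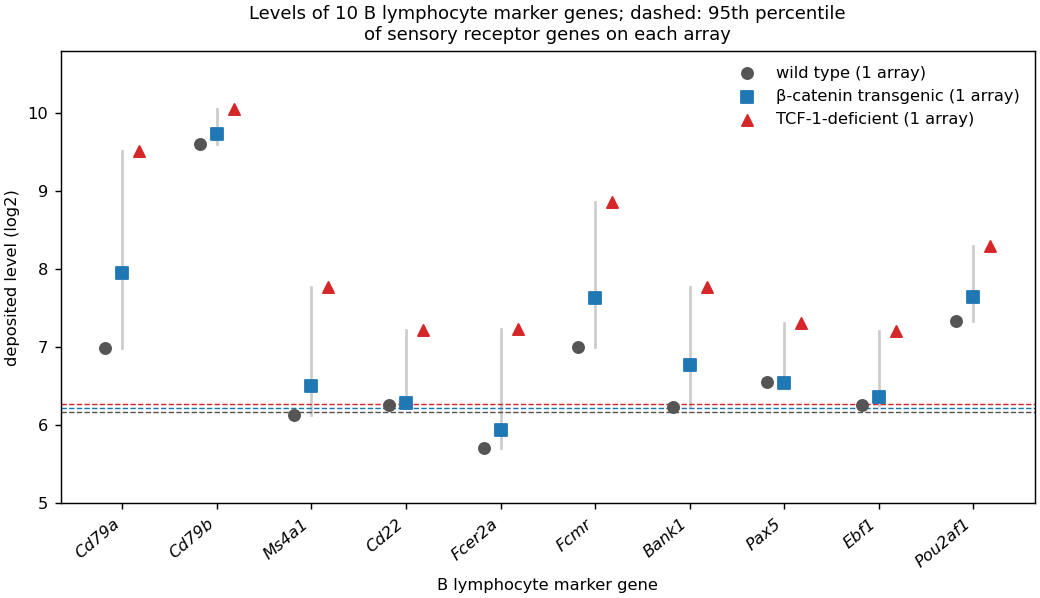
Deposited log2 level (vertical axis) of each of the 10 B lymphocyte marker genes on the wild type (circle), β-catenin transgenic (square) and TCF-1-deficient (triangle) array, 1 array each. Grey lines join the lowest and highest level of a gene, and dashed lines mark the 95th percentile of sensory receptor genes on each array. The triangle is the highest point for every gene, and Ms4a1 and Fcer2a lie below the wild type line on the wild type array.

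Cd79a encodes the Igα chain of the B cell receptor, which carries the signal into the cell. Its level was 6.99 on the wild type, 7.96 on the transgenic and 9.52 on the TCF-1-deficient array. Without TCF-1 it was thus 2.53 higher than in wild type, or 5.78-fold, and 37 of 19938 genes had a larger difference. The transgenic array was 0.97 higher, or 1.96-fold, just under the 2-fold rule, with 34 genes above it. Of the 10 members, Cd79a had the largest difference in every comparison.

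Cd79b encodes the partner chain Igβ and behaved differently on these arrays. It was at 9.61, 9.74 and 10.06 on the wild type, transgenic and TCF-1-deficient arrays. The difference without TCF-1 was 0.45, or 1.37-fold, and 1294 genes exceeded it. The transgenic difference was 0.12. The 2 chains of the receptor therefore differed by unequal amounts, and Cd79b was the only member of the 10 under 1.5-fold without TCF-1. Its probe set was 3.44 above the gauge on the wild type array, where the Cd79a probe set was 0.82 above it.

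Among the surface receptors, Fcmr, which encodes the Fc receptor for IgM, was at 7.01 on the wild type, 7.64 on the transgenic and 8.87 on the TCF-1-deficient array. This is 1.86 (3.64-fold) above wild type without TCF-1 and 0.63 (1.55-fold) with the transgene. It was above the gauge on all 3 arrays. Ms4a1, which encodes CD20, was at 6.13, 6.5 and 7.77 on the wild type, transgenic and TCF-1-deficient arrays. It was just below the gauge on the wild type array (-0.04 from it), so its difference of 1.64 (3.11-fold) rests on a wild type level that cannot be told from background. With the transgene it was 0.37 higher.

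Fcer2a encodes CD23, the low-affinity IgE receptor of mature follicular B cells. Its levels were 5.71 on the wild type, 5.94 on the transgenic and 7.24 on the TCF-1-deficient array, above the gauge only on the last. The difference of 1.52 without TCF-1 (2.88-fold) is uncertain in size for that reason, and the transgenic difference of 0.22 lies between levels that are both below the gauge. Cd22, an inhibitory co-receptor that binds sialic acid, was at 6.26, 6.29 and 7.22 on the wild type, transgenic and TCF-1-deficient arrays. It was 0.96 higher without TCF-1 (1.94-fold) and 0.03 higher with the transgene. Of these 4 surface receptors, Cd22 alone stayed under 2-fold without TCF-1.

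Bank1, a cytoplasmic scaffold that links the B cell receptor to calcium release, was at 6.24 on the wild type, 6.78 on the transgenic and 7.77 on the TCF-1-deficient array. It was 1.52 higher without TCF-1 (2.88-fold) and 0.54 higher with the transgene (1.45-fold). Its wild type level was 0.07 above the gauge. A larger difference from wild type was found for 114 genes with the transgene and for 115 genes without TCF-1, both measured against the same array.

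The 3 regulators of transcription were each under 2-fold without TCF-1. Pax5, the factor that holds B cell identity, was at 6.56 on the wild type, 6.54 on the transgenic and 7.31 on the TCF-1-deficient array. It was 0.75 higher without TCF-1 (1.68-fold). With the transgene the difference was -0.02, which became 0.06 when the arrays were centred on their medians. Ebf1, which acts before Pax5 to specify the lineage, was at 6.26, 6.36 and 7.21 on the wild type, transgenic and TCF-1-deficient arrays, 0.95 above wild type without TCF-1 and 0.1 above it with the transgene. Pou2af1 encodes the co-activator OCA-B, which B cells need to form germinal centres. It was at 7.34, 7.65 and 8.3 on the wild type, transgenic and TCF-1-deficient arrays, 0.96 higher without TCF-1 (1.95-fold) and 0.32 higher with the transgene.

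The members nearest to the 2-fold rule from above, without TCF-1, were Bank1 and Fcer2a, both at 1.52. Nearest from below were Pou2af1 and Cd22, both at 0.96, and Ebf1 at 0.95. Centring (subtracting from each array its median over the 35556 probe sets) adds 0.13 to every TCF-1-deficient minus wild type difference and brings those 3 past the rule, so that 8 of 10 were higher. Over all genes the shares beyond 2-fold then became 1.83% higher and 2.03% lower. It does not change the direction of any member in that comparison. The same centring adds 0.08 to transgenic minus wild type and brings Cd79a to 1.05. The shares of all genes there became 0.186% higher and 0.0802% lower.

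**Figure D2:**
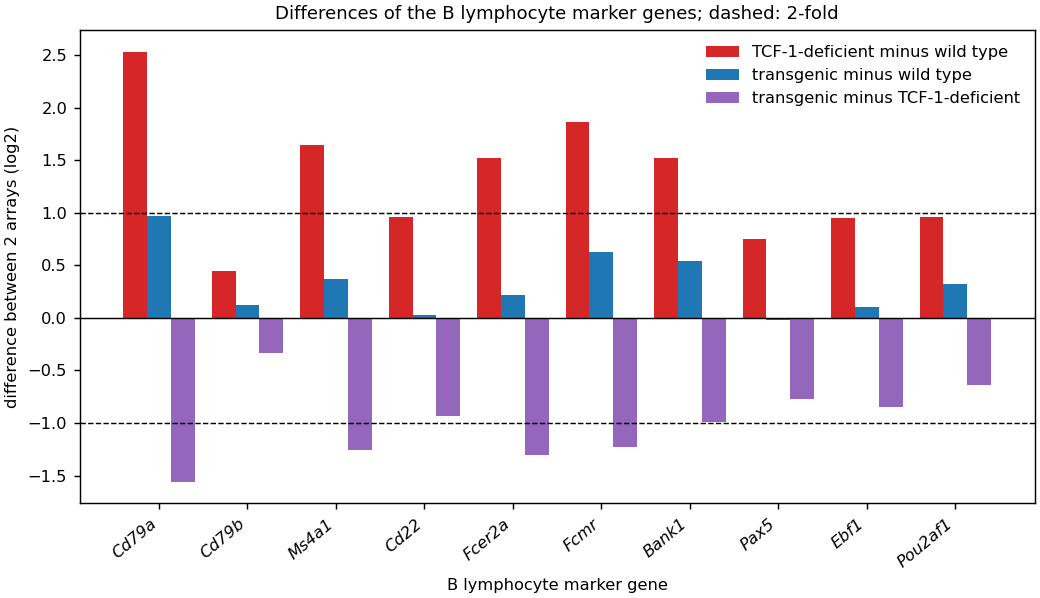
Difference in log2 level between 2 arrays (vertical axis) for each B lymphocyte marker gene, as bars from 0 for TCF-1-deficient minus wild type, transgenic minus wild type and transgenic minus TCF-1-deficient. Dashed lines mark 2-fold, which 5 genes pass in the first comparison, 0 in the second and 4 in the third.

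Counting detection in place of size, 8 of 10 members were above the gauge on the wild type array (64.2% of all genes were), 9 on the transgenic (63.1%) and 10 on the TCF-1-deficient array (63.1%). At the stricter 99th percentile of the sensory receptor genes the numbers were 4, 4 and 10, against 49.9%, 48.6% and 46.8% of all genes. Cd79a, Cd79b, Fcmr and Pou2af1 were the 4 on the wild type and the transgenic array. The other 6 passed the stricter gauge on the TCF-1-deficient array alone. Many deposited values are identical between arrays to the last digit, in 36.4% of genes for TCF-1-deficient and wild type and in 53.3% for transgenic and wild type. None of the 10 members had identical values in either pair.

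**Figure D3:**
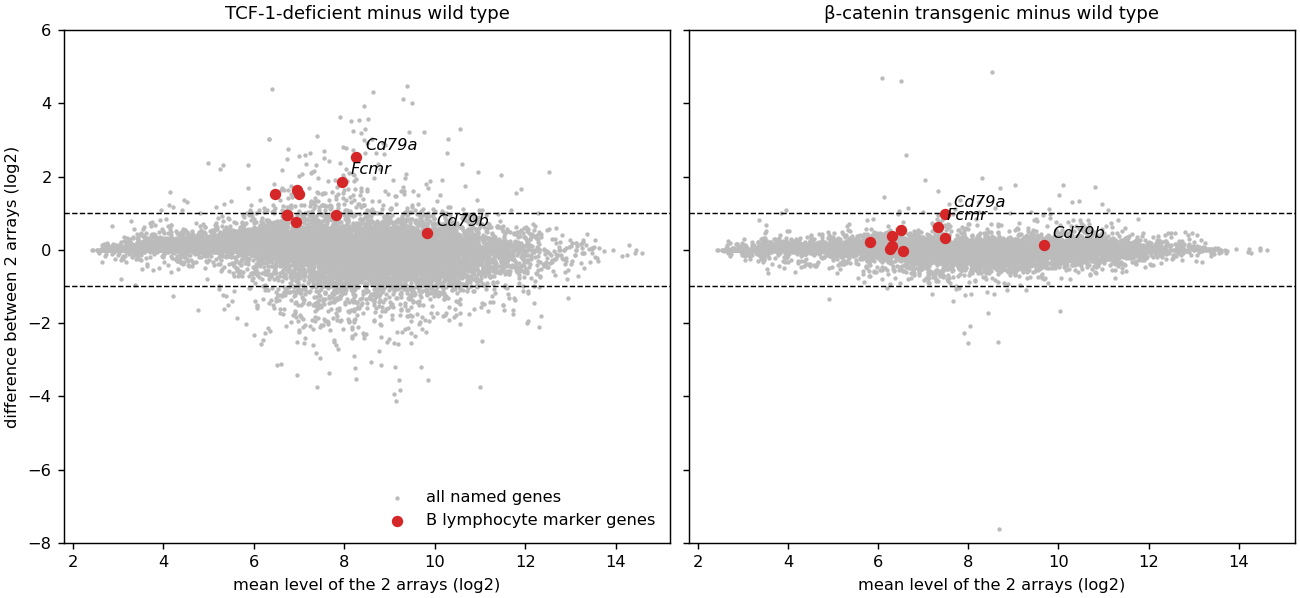
Difference from wild type in log2 level (vertical axis) against the mean log2 level of the 2 arrays (horizontal axis) for 19938 named genes (grey) and the 10 B lymphocyte marker genes (red), for the TCF-1-deficient (left) and transgenic (right) array. Dashed lines mark 2-fold. The red points lie between 0.45 and 2.53 on the left and between -0.02 and 0.97 on the right.

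Other genes of B cell receptor signalling had a median difference of 0.49 without TCF-1, beside 0 over all genes. Of 17 measured, 7 were higher by at least 1.5-fold, against 4.04% of all genes, and 1 was lower, against 6.9%. At 2-fold 1 was higher and 1 lower, against 1.33% and 2.62% of all genes. Blk, a SRC family kinase that γδ T cells also use, was higher by 2.99, from 6.93 on wild type to 9.93, and was at 6.74 on the transgenic array. Cd72, an inhibitory receptor (0.8), and Fcgr2b, the inhibitory IgG receptor (0.68), were higher under 2-fold. Dapp1, a phosphoinositide-binding adaptor, was lower (-1.08), from 9.71 to 8.63. With the transgene 0 of 17 passed 1.5-fold, where 0.487% of all genes were higher and 0.667% lower, and the median was 0.05.

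Other surface receptors and transcription factors of B cells differed in both directions. Their 2-fold counts stand beside 1.33% of all genes higher and 2.62% lower. Of 18 further surface receptors, 1 was higher by 2-fold without TCF-1, Cd180, a Toll-like receptor relative (1.03, from 7.31 to 8.35). Tnfrsf13c, which encodes the BAFF receptor, was at 8.04 on wild type, 8.25 on the transgenic and 8.98 on the TCF-1-deficient array, 0.94 higher on the last. Il4ra, the IL-4 receptor chain (-2.26), and Ly6d (-1.5) were lower, from wild type levels of 10.61 and 12.26. The median was 0.01. Of 15 transcription factors, Mef2c (1.21) and Spib, an ETS factor of B cells and plasmacytoid dendritic cells (1.1), were higher by 2-fold, 0 were lower, and the median was 0. Bach2 was at -0.64 and Bcl11a at 0.55. Spib was at 6.9 on the wild type and the transgenic array and at 8 on the TCF-1-deficient array.

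Markers of B cell stages also differed in both directions. Of 15 genes of early B cells, Bst1 (3.58) and Cd93 (1.88) were higher without TCF-1 and Rag1 (-1.95) and Rag2 (-1.44), subunits of the V(D)J recombinase that thymocytes use too, were lower. Vpreb1 and Igll1, which encode the surrogate light chain of pre-B cells and were chosen after their values were seen, differed by 0.06 and 0.21. Vpreb1 was below the gauge on the TCF-1-deficient array. In the same list Vpreb2 differed by 0.04 and Vpreb3 by 0.56. Of 8 germinal centre genes, Rgs13 was higher (1.59), at levels below the gauge on all 3 arrays, and Fas (-2.6) and Bcl6 (-2.58), both also expressed by thymocytes, were lower. Of 10 plasma cell genes, Sdc1, which encodes syndecan-1, was higher (2.1, from 6.22 to 8.32). Cd28 (-1.06) and Xbp1 (-1.01) were lower, from wild type levels of 11.85 and 11.06. Which cells such bright RNAs came from, here or among the surface receptors, was not tested. Over the 83 measured genes of these 6 lists, 8 were higher by 2-fold without TCF-1, against 1.33% of all genes. Lower by 2-fold were 9, against 2.62%, and the median was 0.02. With the transgene 0 of the 83 passed 2-fold in either direction, where 0.15% of all genes were higher and 0.0953% lower.

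Class II antigen presentation is shared by B cells with dendritic, myeloid and epithelial cells. Of 8 measured class II genes, 1 was higher without TCF-1 by 2-fold (1.33% of all genes were) and 4 by 1.5-fold (4.04% of all genes). None passed either threshold downward, and the median was 0.67. H2-Aa, a class II chain, was at 9.4 on wild type, 9.67 on the transgenic and 10.52 on the TCF-1-deficient array, a difference of 1.11 without TCF-1. H2-Ab1 (0.95), Cd74, the invariant chain (0.9), and H2-Eb1 (0.81) followed, and H2-DMa was at -0.02. Immunoglobulin constant regions gave little information, with 3 of 12 named by a single symbol. Ighm, chosen after its values were seen, had 3 probe sets, of which 1 was higher without TCF-1 by 0.68 and the other two differed by 0.00 to the second decimal. Igha, the IgA constant region, differed between transgenic and wild type by -1.72 in one probe set and -0.53 in the other, and between TCF-1-deficient and wild type by -0.36 and -0.21. All 10 B cell genes were above wild type in the latter comparison.

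Markers of other cell types were counted in the same way, for TCF-1-deficient against wild type. Each 2-fold count stands beside the same shares of all genes, 1.33% higher and 2.62% lower. Of 18 myeloid markers, 3 were higher by 2-fold and 0 lower, with a median of 0.19. They were Ly86, a partner of the receptor encoded by Cd180 that B cells also express (4.01), Cybb (1.55) and Lyz2 (1.12), and C1qb, a complement chain of macrophages, was at 0.81. On each array 14 of the 18 were above the gauge, against 63.1% to 64.2% of all genes. Their summed linear level, as log2, was 11.12 on wild type, 11.31 on the transgenic and 12.49 on the TCF-1-deficient array, and 11, 11.15 and 11.49 without Ly86.

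Of 15 NK and γδ T cell markers, 5 were higher by 2-fold and 1 lower, with a median of 0. Maf (2.86), Gzma (2.65), Cd160 (2.12), Sox13 (1.95) and Il23r (1.08) were the higher genes, and Klrb1c, an NK receptor, was lower (-1.06). Klrb1c was below the gauge on all 3 arrays, and Il23r was below it on the wild type and transgenic arrays. The NK receptors Klrk1 (-0.64) and Klrd1 (-0.58), chosen after their values were seen, were also negative. Both were below the gauge on the TCF-1-deficient array, at 5.65 and 5.96. Other genes of the list differed by small amounts in both directions, such as Nkg7 (-0.33) and Ncr1 (0.02). The summed levels were 11.56 on wild type, 11.35 on the transgenic and 12.84 on the TCF-1-deficient array. On the last, Gzma was the brightest of these genes, at 11.6, and no sum without it was made.

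Of 14 dendritic cell markers 0 were higher by 2-fold and 1, Ccr9 (-1.81), which thymocytes express, was lower, with a median of 0.06. The summed levels were 13.46, 13.45 and 12.14 on the wild type, transgenic and TCF-1-deficient arrays with Ccr9, and 10.54, 10.59 and 10.76 without it. Of 12 thymic epithelial markers 0 were higher and 1, Cldn4 (-1.44), was lower, with a median of 0.02. Of 12 fibroblast and endothelial markers 1, Pdgfrb (4.47), was higher and 0 were lower, with a median of 0.08. Of 4 erythroid markers 1, Alas2, was higher, by 1.14 without TCF-1 and by 1.11 with the transgene.

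Among thymocyte markers themselves, 5 of 14 were lower and 1 higher without TCF-1 by 2-fold, with a median of -0.61 and summed levels of 16.22 on wild type, 16.25 on the transgenic and 15.47 on the TCF-1-deficient array. Cd4 (-3.74), Cd8b1 (-2.1), Rag1 (-1.95), Cd8a (-1.45) and Rag2 (-1.44) were the lower genes and Ptcra, the pre-TCR chain, was higher by 1.79. The corresponding sums of the 10 B cell genes were 10.69, 10.98 and 11.83. They weigh Cd79b most, the brightest member on each array (9.61, 9.74 and 10.06), and no sum without it was made. Of 11 housekeeping genes 0 passed 2-fold, and their median was 0.15 without TCF-1 and 0 with the transgene. The part of these lists in the levels of the B cell genes was not tested.

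**Figure D4:**
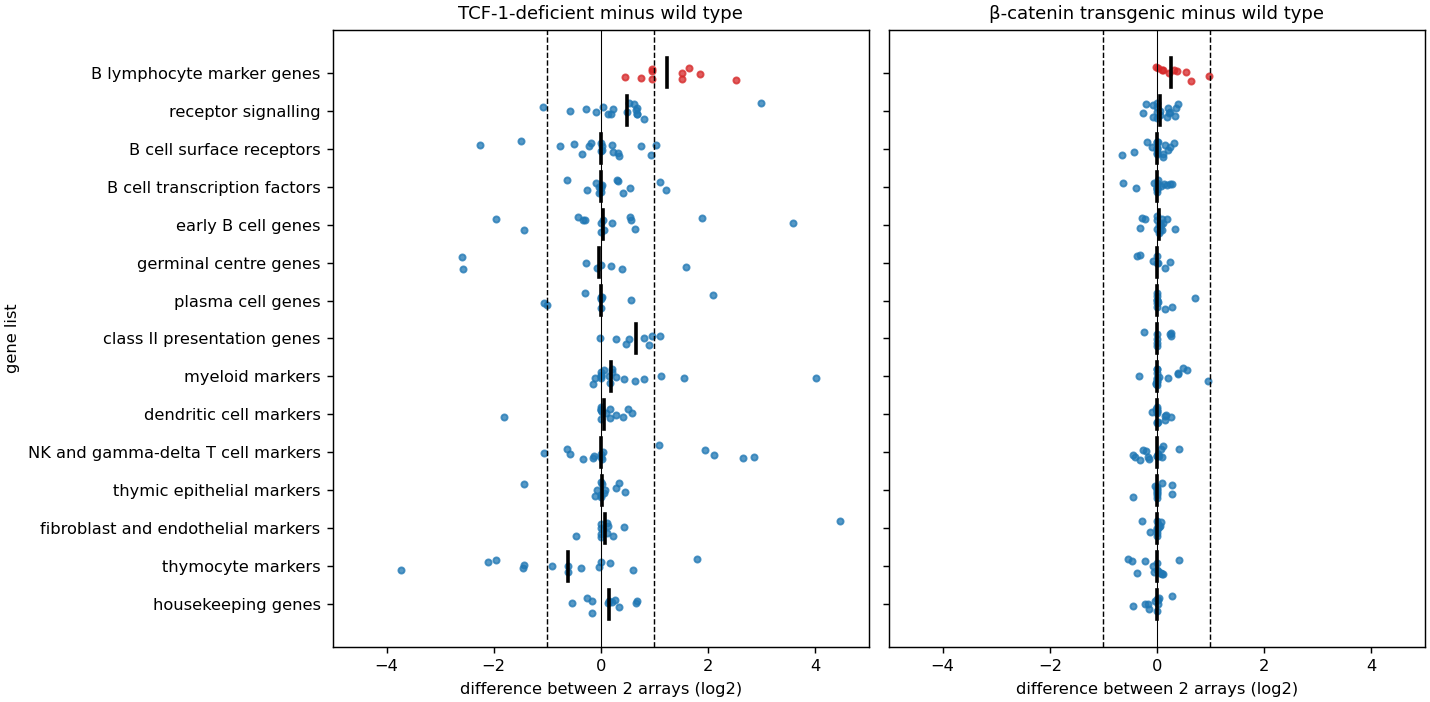
Difference from wild type in log2 level (horizontal axis) of each measured gene (points) in the B lymphocyte marker genes (red) and in 14 other lists (blue), for the TCF-1-deficient (left) and transgenic (right) array. Black bars are list medians and dashed lines mark 2-fold. The median of the B lymphocyte marker genes is 1.24 on the left and 0.27 on the right, and that of the thymocyte markers on the left is -0.61.

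Genes with a pattern close to that of Cd79a were sought by the distance between pairs of differences from wild type, transgenic and TCF-1-deficient, over 3 arrays and 9425 candidate genes of at least median level, after predicted genes, clone names, small RNAs and sensory receptors were left out. The 5 nearest were Sertad4 (distance 0.61), Scd1 (0.67), Rdh10 (0.74), Fcmr (0.75) and Cnnm1 (0.78). Fcmr was the 1 of the 5 from the B cell genes. Ms4a1, Cd22, Fcer2a, Pax5 and Ebf1 had mean levels below the median over genes and were not candidates. Scd1, a fatty acid desaturase, was at 7.28 on the wild type, 7.93 on the transgenic and 9.23 on the TCF-1-deficient array. Sertad4 was at 6.57, 6.99 and 9.38 in the same order.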

How the data were processed

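The authors deposited 1 value per probe set and array, in a range of 1.73 to 14.8. RMA and Partek are the tools in the submitters' processing notes. The log base is not stated, and the deposited values were read as log2, the scale on which RMA ends. Tool versions, settings and genome build: not given in the sources used here. Of 35556 probe sets in the table, the platform annotation gives 21789 a single symbol and 1621 several (not used), and the others are unnamed here. For the 999 genes with several probe sets, the one with the highest mean was taken. Entrez identifiers matched GRCm38.p6 for 99.6%, and 0 symbols were updated. The deposited normalisation was kept.

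The size rule was 2-fold, with no test, since each genotype has 1 array. The members and lists were chosen with earlier results of these data known. All 10 members are named, along with, per list, at most 4 genes with the largest difference without TCF-1 and any past 2-fold, and the 5 genes nearest to Cd79a. Genes named outside this rule include H2-DMa, Vpreb1, Vpreb2, Vpreb3, Igll1, Klrk1, Klrd1, Nkg7 and Ncr1. Alternatives were centring, loess (span 0.3), probe set means, a filter on dim genes, other gauges, and size rules of 1.5-fold and 3-fold. Calculations were tested on simulated arrays. Python 3.11.15, NumPy 2.4.6, pandas 2.3.3 and statsmodels 0.14.6 were used.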

Additional observations from a re-analysis of the deposited data

How the results depend on the processing

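Under centring, 25 of 30 member differences kept their side of the 2-fold rule and 5 moved past it. Under loess all 30 kept it. Probe set means change nothing here, since each member has 1 probe set. No member past 2-fold changed direction under centring or loess. TCF-1-deficient minus wild type, 5 members were higher by 2-fold, 8 after centring of the arrays, 9 at 1.5-fold (4.04% of all genes) and 3 at 3-fold. The median of 1.24 became 1.37 with centring. Transgenic minus wild type, 0 were higher by 2-fold, 1 with centring and 2 at 1.5-fold. Transgenic minus TCF-1-deficient, 4 were lower by 2-fold, 9 at 1.5-fold and 0 at 3-fold. The share of all genes beyond 3-fold was not counted, so the counts at 3-fold have no share beside them. Members above background on the wild type and transgenic arrays numbered 8 and 9, and 4 and 4 with either the 99th percentile of sensory receptor genes or the median over named genes. Loess left the 2-fold counts of the 3 comparisons within 1.5 times and their medians within 0.1. The filter on dim genes kept a member that was above the gauge on either array of a pair. All 10 were above it on the TCF-1-deficient array, so the filter could not change the 2 comparisons with that array. For transgenic minus wild type it kept 9 members, of which 0 were higher by 2-fold, with a median of 0.32. Leaving out genes with identical values, chosen after seeing the data, raised the share of all genes higher by 2-fold from 1.33% to 2.1% without TCF-1 and from 0.15% to 0.322% with the transgene. No paired analysis was possible because each genotype has 1 array, and no array could be left out. Signal close to background limits the sizes given for Ms4a1, Fcer2a, Bank1, Cd22 and Ebf1.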
